A study of Homo sapiens with 6 samples.

Results

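Expression of the genes CEACAM1, CEACAM5, CEACAM6, CEACAM7 and CEACAM19 was compared between HuCCT1/CD90+ and HuCCT1/CD90- cells. These genes were picked by symbol, each was read in the panel by 1 amplicon, and they make up 5 of the 20811 genes of the table. HuCCT1 derives from a cancer of the bile ducts inside the liver. HuCCT1/CD90+ cells carried the lentivirus THY1-CMV-GFP, which brings in the gene of the surface glycoprotein CD90, and HuCCT1/CD90- cells carried Lenti-CMV-GFP-2A-Puro-Blank. CMV is a viral promoter that is active in most cell types, both vectors name GFP, and virus was given at a multiplicity of infection of 40. The labels give 3 libraries of each line and do not say whether these came from separate cultures or whether a line grew from 1 clone, so p-values measure only the spread between these libraries. Reads on genes ranged from 9345680 to 10551516 in the CD90- libraries and from 8587634 to 9327650 in the CD90+ libraries.

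Carcinoembryonic antigen-related cell adhesion molecules are surface glycoproteins of the immunoglobulin superfamily that bind one another on neighbouring cells. CEACAM5, the carcinoembryonic antigen measured in serum during follow-up of gut cancers, is held in the outer leaf of the membrane by a glycosylphosphatidylinositol (GPI) anchor, as are CEACAM6 and CEACAM7. CEACAM1 spans the membrane, and its long cytoplasmic form recruits the phosphatases SHP-1 and SHP-2. CEACAM6 has been studied in pancreatic and biliary carcinomas in relation to adhesion, invasion and resistance to cell death on loss of anchorage. CEACAM7 is typical of mature colonic epithelium, and CEACAM19 is a more distant transmembrane member whose role is little known.

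All of them lie on the long arm of chromosome 19. In GENCODE 29 (GRCh38), CEACAM7 (ENSG00000007306) spans 41673307 to 41706976 on the minus strand. It is followed by CEACAM5 (ENSG00000105388) from 41708585 to 41729798 and CEACAM6 (ENSG00000086548) from 41750977 to 41772208, both on the plus strand. CEACAM1 (ENSG00000079385) lies further along, from 42507304 to 42561234 on the minus strand, and CEACAM19 (ENSG00000186567) from 44662278 to 44684359 on the plus strand. CEACAM1 has 14 annotated transcripts, CEACAM5 has 10, CEACAM19 has 9, CEACAM7 has 4 and CEACAM6 has 2. The position of an amplicon within its gene was not given in the sources used here, so an exon or isoform cannot be assigned to any value.

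The stretches before the RefSeq transcription starts (GRCh38.p14) are shown for the 4 members with an entry, because these closely related promoters stand before genes with different values in the same libraries. Each line gives the 250 bases that end just before the start, read in the direction of transcription, with capitals marking the matches to the searched motifs. The stretches are CEACAM6 at chr19:41755280-41755529 (plus strand), CEACAM5 at chr19:41708376-41708625 (plus strand), CEACAM1 at chr19:42528482-42528731 (minus strand) and CEACAM7 at chr19:41688271-41688520 (minus strand).
CEACAM6: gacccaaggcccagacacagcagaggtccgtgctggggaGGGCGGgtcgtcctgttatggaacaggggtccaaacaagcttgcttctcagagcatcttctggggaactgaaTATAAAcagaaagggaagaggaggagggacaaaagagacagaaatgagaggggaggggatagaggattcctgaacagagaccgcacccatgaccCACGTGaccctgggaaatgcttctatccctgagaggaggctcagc
CEACAM5: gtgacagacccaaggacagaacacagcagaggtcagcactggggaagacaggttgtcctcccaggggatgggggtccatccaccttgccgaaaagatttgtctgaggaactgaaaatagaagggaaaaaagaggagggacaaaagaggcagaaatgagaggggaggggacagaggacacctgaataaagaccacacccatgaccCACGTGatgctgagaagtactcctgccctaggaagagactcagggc
CEACAM1: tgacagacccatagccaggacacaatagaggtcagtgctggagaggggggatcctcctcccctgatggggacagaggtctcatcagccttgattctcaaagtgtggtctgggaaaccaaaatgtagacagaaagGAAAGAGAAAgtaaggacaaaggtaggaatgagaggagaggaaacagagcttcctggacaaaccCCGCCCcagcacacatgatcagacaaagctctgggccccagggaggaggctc
CEACAM7: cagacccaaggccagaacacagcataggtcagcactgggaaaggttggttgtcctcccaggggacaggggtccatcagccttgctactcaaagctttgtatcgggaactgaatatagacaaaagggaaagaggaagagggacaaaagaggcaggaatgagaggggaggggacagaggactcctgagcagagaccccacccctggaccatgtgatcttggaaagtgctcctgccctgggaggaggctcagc

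Motifs were searched on both strands from 250 bases before to 50 bases after the start, and every match in these 4 genes fell within the printed bases. The E-box CACGTG, which upstream stimulatory factors bind, occurred at position -45 of CEACAM6 and at position -46 of CEACAM5, counted back from the start. It was present in 7.43% of all 27305 RefSeq promoter windows of that length. The CEACAM6 window also held the GC box GGGCGG at -211 and the TATA-type motif TATAAA at -139, which 44.6% and 12.0% of all windows hold. The CEACAM1 window had no E-box. It held the GC box on the opposite strand at -52 and the interferon regulatory factor motif, a pair of GAAA with any 2 bases between them, at -116, a motif in 3.65% of all windows. None of the 6 motifs was matched in the CEACAM7 window. The AP-1 motif TGANTCA (7.76% of all windows) and the grainyhead-like motif AACCNGTT (1.73%) were matched in none of the 4. The promoter windows of CEACAM5 and CEACAM6 were 78.8% identical over 292 aligned bases, those of CEACAM6 and CEACAM7 81.5% and those of CEACAM5 and CEACAM7 84.7%. The window of CEACAM1 was 74.8% identical to that of CEACAM6.

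The coding sequences are alike as well, which bears on what an amplicon can tell apart. CEACAM6 shared 90.4% of its aligned coding bases with CEACAM5 and 89.2% with CEACAM1. Of all 50-base stretches of the transcript with the longest coding sequence, 4.22% of those of CEACAM5, 4.6% of those of CEACAM6 and 4.15% of those of CEACAM1 occurred without a mismatch in a transcript of another CEACAM or PSG gene. Counting every annotated gene, the shares of CEACAM5 and CEACAM6 were 24.4% and 7.92%, and AC243967.1 was the gene that shared the most stretches with each. For CEACAM7 and CEACAM19 both counts were 0. Whether reads were shared among CEACAM1, CEACAM5 and CEACAM6 was not tested.

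THY1, the gene brought in by the virus, had 0, 1 and 0 reads in the CD90- libraries and 435, 445 and 680 reads in the CD90+ libraries. The lines did not overlap, and the mean of the CD90+ libraries was 57.4 ± 14.4 RPM (SD, n = 3), where RPM are reads scaled to the total of the library. Against 3 reads in a CD90- library, the floor used here, this mean is at least 178.9-fold higher, and each library went with its label.

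CEACAM6 and CEACAM1 rose in HuCCT1/CD90+ cells, CEACAM5 and CEACAM19 did not pass the test, and CEACAM7 had no read in any library. CEACAM6 went from 20.3 ± 6.88 RPM to 86.2 ± 8.97 RPM (SD, n = 3 per line), a ratio of means of 4.25. CEACAM1 went from no read to 1.91 ± 0.519 RPM, at least 5.945-fold above the floor. Calls come from limma on log2(RPM + 1), with p adjusted by Benjamini-Hochberg across the 20811 genes (limit 0.05) and a fold change of 1.5 or more. By that rule 2 of the 5 members were called higher. Of all genes, 1580 (7.59%) were called higher and 1558 (7.49%) lower, 15.1% together. With a term for the replicate number (a block), the same 2 members were called, beside 1091 genes (5.24%) higher and 1011 (4.86%) lower, 10.1% together. By the unadjusted p with the same fold limit 3 members were higher, beside 10.1% of all genes higher and 9.98% lower, 20.1% together. The libraries hold bulk RNA, so a larger share of cells with a transcript and more transcript per cell cannot be told apart.

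**Figure D1:**
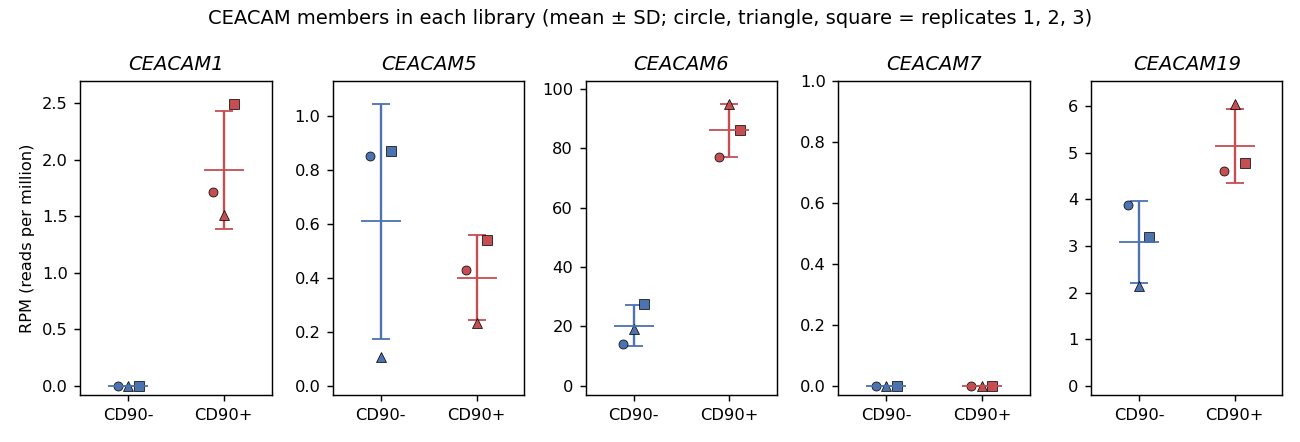
Values of the 5 CEACAM members in each library, in RPM, 1 panel per gene with its own axis. Points are the 3 libraries of each line and bars with whiskers are means with SD. CEACAM6, CEACAM1 and CEACAM19 have no overlap between the lines, CEACAM5 overlaps, and CEACAM7 is at 0 in all 6 libraries.

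CEACAM6 was read at 14.0, 19.2 and 27.6 RPM in the CD90- libraries 1, 2 and 3, and at 77.2, 95.1 and 86.2 RPM in the CD90+ libraries 1, 2 and 3. The raw reads behind these values were 148, 179 and 285 against 720, 817 and 794. The lowest CD90+ library was well above the highest CD90- library. The log2 fold change was 2.08 with an SE of 0.268 and a 95% confidence interval of 1.36 to 2.79 (limma, adjusted p = 0.011). Its rise was the 322nd largest in the table. Without CD90+ library 3 the log2 fold change was again 2.08, but the adjusted p was 0.053 (limma) and the call was lost.

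CEACAM1 had 0 reads in each of the 3 CD90- libraries and 16, 13 and 23 reads in the CD90+ libraries, which correspond to 1.72, 1.51 and 2.50 RPM. The 2 lines did not overlap, although the CD90+ libraries rest on few reads. With 3 reads taken as the limit that a count of 0 allows, a CD90- library could have held up to 0.321 RPM, and this limit covers counting error only. On the log2(RPM + 1) scale the difference was 1.53 with an SE of 0.136 and a 95% confidence interval of 1.16 to 1.89 (limma, adjusted p = 0.0044). This scale understates the change of a gene read so little.

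CEACAM5 was read 9, 1 and 9 times in the CD90- libraries and 4, 2 and 5 times in the CD90+ libraries, or 0.853, 0.107 and 0.873 RPM against 0.429, 0.233 and 0.543 RPM. CD90- library 2 was below every CD90+ library and the other CD90- libraries were above every one, so the lines overlapped. The log2 fold change was -0.17 with an SE of 0.254 and a 95% confidence interval of -0.84 to 0.51 (limma, adjusted p = 0.81). Without CD90- library 2 the log2 fold change was -0.42 (limma, adjusted p = 0.12), and without CD90- library 3 it was -0.037.

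CEACAM7 had 0 reads in all 6 libraries, which allows up to 0.349 RPM in the shallowest of them. CEACAM19 was read at 3.89, 2.14 and 3.20 RPM in the CD90- libraries and at 4.61, 6.06 and 4.77 RPM in the CD90+ libraries, from 20 to 52 reads each. All CD90+ libraries were above all CD90- libraries, as they were for 17.3% of all genes. The order was the opposite for 17.7%, so the lines did not overlap for 35.0% of the genes. The means were 3.08 ± 0.880 and 5.15 ± 0.791 RPM (SD, n = 3 per line). The log2 fold change of 0.61 (SE 0.203, 95% confidence interval 0.067 to 1.15) did not pass the test (limma, adjusted p = 0.12). With the test kept to the 12062 genes that averaged 1 RPM or more, CEACAM19 was called at an adjusted p of 0.023 (limma). That test called 16.7% of its genes higher and 16.5% lower, 33.3% together.

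**Figure D2:**
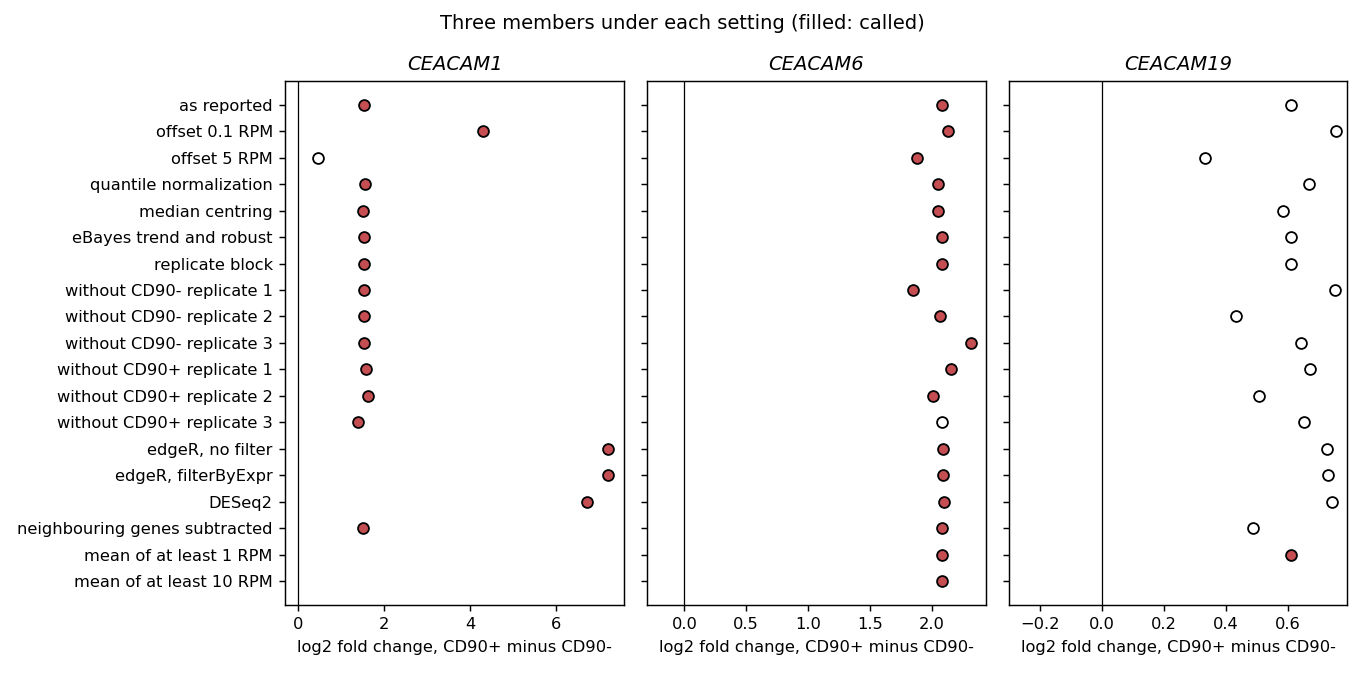
Log2 fold change (HuCCT1/CD90+ minus HuCCT1/CD90-) of CEACAM1, CEACAM6 and CEACAM19, each panel with its own axis, in the limma test as reported and with 1 choice changed per row. Filled points passed the call and open points did not. CEACAM6 is open only without CD90+ library 3, CEACAM1 only with an offset of 5 RPM, and CEACAM19 is filled only with the filter at 1 RPM. The values of CEACAM1 run from 0.46 to 7.20, because a gene at 0 in one line has no fixed fold.

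Because each library gives the members side by side, the members could be compared with one another by the difference of their log2(RPM + 1) values. Among the 4 members with reads, 6 pairs were compared with an exact two-sided permutation test over the 6 libraries, which cannot give a p below 0.10. The test could therefore not pass, and the differences are given as values. The log2 fold change of CEACAM5 minus that of CEACAM6 was -2.25, and that of CEACAM6 minus that of CEACAM19 was 1.47. For CEACAM1 the difference was 1.69 from CEACAM5 and 0.92 from CEACAM19. In these 4 pairs, and between CEACAM19 and CEACAM5 (-0.78 for CEACAM5 minus CEACAM19), the per-library differences of the lines did not overlap, with an exact p = 0.10 and an adjusted p = 0.12. The log2 fold changes of CEACAM1 and CEACAM6 differed by -0.55, the libraries overlapped, and the exact permutation p was 0.20. All differences from CEACAM1 depend on the offset of 1 RPM, because CEACAM1 was at 0 in one line. With an offset of 0.1 RPM the log2 fold change of CEACAM1 was 4.30 and that of CEACAM6 2.13, the opposite order, and with 5 RPM they were 0.46 and 1.88.

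The remaining 7 CEACAM genes of the table, leaving out the pseudogene CEACAM22P, were at or under 3 reads in every library, 3 of them with no read at all. They included CEACAM8, which marks granulocytes, with 1 read in all 6 libraries together, and CEACAM3, a granulocyte receptor, with 3, 0 and 1 reads in the CD90+ libraries. limma called 0 of these 7 genes, and so did the unadjusted p with the fold limit, edgeR and DESeq2. Over all 12 CEACAM genes the summed value was 18.9, 21.5 and 31.7 RPM in the CD90- libraries and 84.3, 103.2 and 94.2 RPM in the CD90+ libraries. The amplicon of CEACAM6 gave 74.4 to 89.1% of these reads in the CD90- line and 91.5 to 92.2% in the CD90+ line. Without it the family had 51, 22 and 42 reads against 66, 69 and 74.

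**Figure D3:**
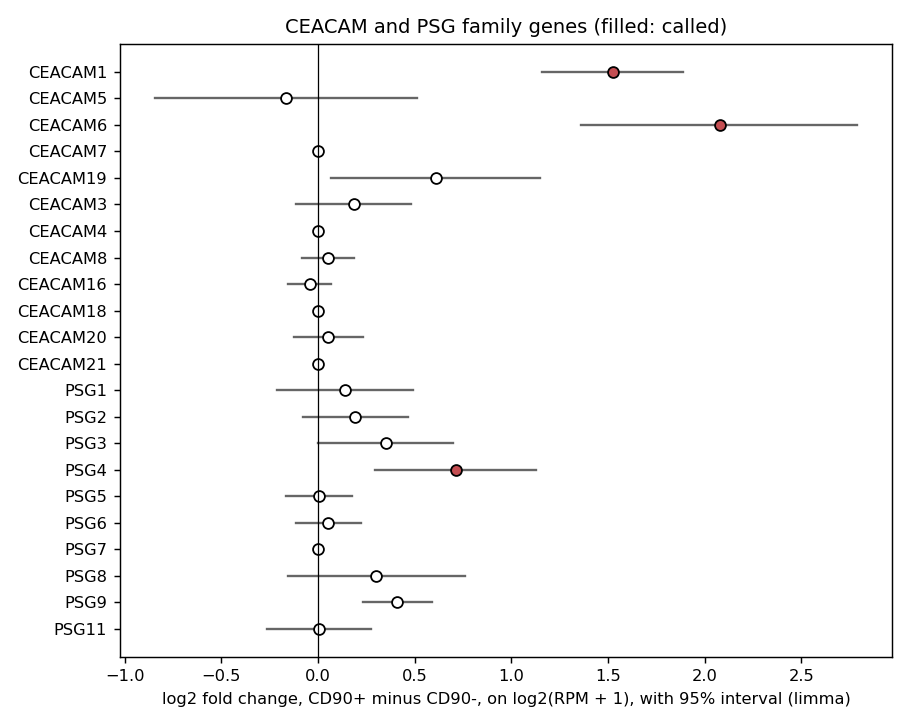
Log2 fold change (HuCCT1/CD90+ minus HuCCT1/CD90-, on log2(RPM + 1)) of each CEACAM and PSG gene, 1 row per gene, with its 95% confidence interval from limma as a line and called genes filled. CEACAM6 (2.08), CEACAM1 (1.53) and PSG4 (0.71) are filled, and the genes with no read sit at 0.

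The pregnancy-specific glycoproteins (PSG), secreted placental members of the same family, sit between CEACAM1 and CEACAM19 on the chromosome. Of 10 PSG genes in the table, leaving out the pseudogene PSG10P, 5 were at or under the floor in both lines. PSG4 was called, with 1, 4 and 4 reads in the CD90- libraries and 12, 7 and 12 in the CD90+ libraries (log2 fold change 0.71, limma adjusted p = 0.045). Under the replicate block the adjusted p was 0.15 (limma), and the call was lost in all 6 fits without 1 library (up to 0.14). With an offset of 0.1 RPM PSG4 was not called (limma, adjusted p = 0.081), although 1 PSG gene was called in that fit. PSG genes are near-identical copies, so the gene behind these few reads is uncertain. PSG9 had 0 reads in each CD90- library and 2, 3 and 4 in the CD90+ libraries, below the fold limit of the call on the log2(RPM + 1) scale.

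Genes whose products work with CEACAM1 were followed next. Of 12 signalling, cytoskeletal and receptor partners, 2 rose, 1 fell and 9 were not called, with a median log2 fold change of 0.21 beside 0 over all genes. By the same call 7.59% of all genes rose and 7.49% fell, 15.1% together. PTPN6 encodes SHP-1, the phosphatase recruited by the long tail of CEACAM1. It was read at 21.1, 32.2 and 29.1 RPM in the CD90- libraries and at 55.4, 68.1 and 72.8 RPM in the CD90+ libraries, with no overlap (log2 fold change 1.23, SE 0.200, limma adjusted p = 0.021). EGFR, a receptor whose signalling CEACAM1 can dampen, rose from 228 ± 53.0 to 541 ± 63.6 RPM (SD, n = 3 per line; log2 fold change 1.26). Its limma adjusted p was 0.024, and 0.068 with the replicate block. Without single libraries the adjusted p of PTPN6 reached 0.079 and that of EGFR 0.086 (limma), and both calls were lost without CD90- library 3, CD90+ library 2 or CD90+ library 3, that of EGFR also without CD90+ library 1. With neighbouring genes subtracted the log2 fold change of EGFR was 0.70 (limma, adjusted p = 0.12). CTNNB1, encoding β-catenin, which binds the long tail, fell from 929 ± 84.9 to 455 ± 33.7 RPM (SD, n = 3 per line; log2 fold change -1.02, limma adjusted p = 0.0048).

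Splicing factors proposed to set the length of the CEACAM1 tail were 5, of which 2 rose and 1 fell, beside 15.1% of all genes called. ESRP1, a splicing regulator of epithelial cells, had 2, 0 and 2 reads in the CD90- libraries and 605, 475 and 503 in the CD90+ libraries. This is at least 181.5-fold higher than the floor (limma, adjusted p = 0.00022). Its relative ESRP2 rose from 34.9 ± 2.81 to 55.5 ± 2.33 RPM (SD, n = 3 per line; log2 fold change 0.66, limma adjusted p = 0.0067). HNRNPA1, a general splicing repressor, fell from 499 ± 50.8 to 199 ± 13.9 RPM (SD, n = 3 per line; log2 fold change -1.32, limma adjusted p = 0.0028). The forms of CEACAM1 itself were not measured, since the gene was read by 1 amplicon.

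Measured genes for the synthesis, attachment and remodelling of GPI anchors, which hold CEACAM5, CEACAM6, CEACAM7 and CD90 at the surface, were 24. Beside 15.1% of all genes called in either direction, 3 of these rose, 1 fell and 20 were not called. Their median log2 fold change was -0.0096. PIGA (8.89 to 18.3 RPM), PIGH (45.1 to 89.6 RPM) and PIGX (11.8 to 22.6 RPM), which act in early steps of anchor assembly, rose with log2 fold changes of 0.96, 0.98 and 0.89 (limma, adjusted p = 0.015, 0.016 and 0.032). The call of PIGA was lost with the replicate block, at an adjusted p of 0.056 (limma). Without single libraries the adjusted p reached 0.059 for PIGA, 0.066 for PIGH, 0.090 for PIGX and 0.054 for PGAP1 (limma), and without CD90- library 3 none of these 4 genes was called. PIGX lost its call in all 6 of these fits, and with neighbouring genes subtracted its log2 fold change was 0.26 (limma, adjusted p = 0.42). PGAP1, which removes a fatty acid from the finished anchor, fell from 5.37 to 1.85 RPM (log2 fold change -1.17, limma adjusted p = 0.013). These are means of 3 libraries per line, and the lines did not overlap for any of the 4 genes.

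Among 11 other surface antigens of carcinomas of the gut and bile duct, 3 rose, 1 fell and 7 were not called. Their median log2 fold change was 0.52, and 15.1% of all genes were called in either direction. EPCAM, an epithelial adhesion molecule, was read at 32.1, 24.9 and 28.8 RPM in the CD90- libraries and at 416, 316 and 357 RPM in the CD90+ libraries. The lines were far apart, with a log2 fold change of 3.62 and an SE of 0.146 (limma, adjusted p = 0.0007). MUC16, the mucin that carries the CA-125 antigen, rose from 2.09 ± 0.716 to 9.08 ± 1.20 RPM (SD, n = 3 per line; log2 fold change 1.73). Its limma adjusted p was 0.011, and 0.066 with the replicate block. The membrane mucin MUC1 went the other way, from 59.7 ± 6.38 to 30.0 ± 5.67 RPM (SD, n = 3 per line; log2 fold change -0.98, limma adjusted p = 0.027). Without single libraries MUC1 reached an adjusted p of 0.092 (limma), and its call held only without CD90+ library 2, and with neighbouring genes subtracted its log2 fold change was -0.61 (limma, adjusted p = 0.097). MUC16 was lost without CD90+ library 3, at 0.051 (limma).

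Transcription factors proposed to act on CEACAM promoters were 13, of which 1 rose and 12 were not called, beside 15.1% of all genes called. The median log2 fold change of the 13 was -0.081. HNF4A, a factor of hepatic and intestinal epithelium, had 0, 1 and 2 reads in the CD90- libraries and 49, 76 and 112 in the CD90+ libraries. All CD90- libraries were at or under the floor, and the CD90+ mean was at least 27.26-fold higher than it (limma, adjusted p = 0.0057). USF1 and USF2, which bind the E-box, stood at log2 fold changes of -0.27 and 0.27, and SP1, which binds the GC box, at -0.14, and these were among the 12 not called.

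**Figure D4:**
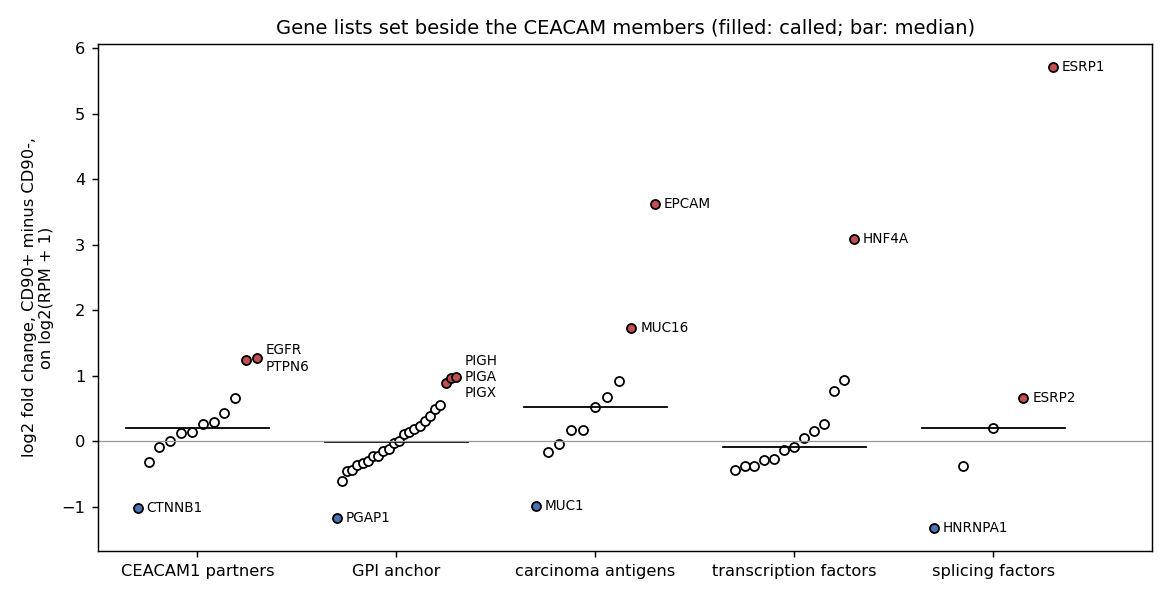
The log2 fold change (HuCCT1/CD90+ over HuCCT1/CD90-, log2(RPM + 1) scale) of genes in 5 lists, 1 column per list, with called genes filled and the median of the whole list as a bar. The medians lie between -0.081 for the transcription factors and 0.52 for the carcinoma antigens, and ESRP1, EPCAM and HNF4A stand above 3.

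Bile duct epithelial markers were present in both lines, with a sum over 7 genes of 8210 to 9310 RPM in the CD90- libraries and 11000 to 11700 RPM in the CD90+ libraries. Of these, 3 rose, KRT18 and EPCAM among them, beside 7.59% of all genes. The 4 granulocyte markers, cells that carry several CEACAM proteins, summed to at most 0.214 RPM in any library, with MPO and FCGR3B at 0 throughout. Of 4 hepatocyte markers the sums were 1.75 to 4.28 RPM and 0 to 0.465 RPM, TTR was at 0 in every library, and APOA1 fell, a call lost in 5 of the 6 fits without 1 library (limma, adjusted p up to 0.090). The 4 markers of other leukocytes summed to 46.5 to 55.9 RPM and 83.9 to 100 RPM, nearly all from CD68, which rose.

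Of the stromal cell markers, some differed between the lines. The 4 fibroblast markers summed to 23.8 to 30.7 RPM in the CD90- libraries and to 14.7 to 15.1 RPM in the CD90+ libraries. Of them 3 fell, DCN, PDGFRB and COL3A1, beside 7.49% of all genes. The calls of DCN (limma, adjusted p = 0.086) and COL3A1 (limma, adjusted p = 0.10) were lost with the replicate block, and each was lost in 5 of the 6 fits without 1 library. The 3 endothelial markers summed to 14.5 to 23.2 RPM and to 0.643 to 1.51 RPM. Of these CDH5 was called, from 16.6 ± 3.17 to 0.293 ± 0.118 RPM (SD, n = 3 per line; limma adjusted p = 0.0008). The part of these markers in the CEACAM values was not tested.

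Genes close to the members on chromosome 19 gave a measure of how the region moved. Within 500 kb of any member lay 60 genes outside the CEACAM and PSG families and their pseudogenes. Beside 7.59% of all genes called higher and 7.49% lower, 8 of these 60 were called higher and 3 lower. The 30 of them that averaged 10 RPM or more had a median log2 fold change of 0.081, beside 0.017 over 496 such genes of chromosome 19 and 0.012 over all 8794. Around CEACAM6 the median was 0.026 over 14 genes, and around CEACAM1 it was -0.095 over 6 genes. When the median of the 50 nearest genes was subtracted, CEACAM6 stood at 2.08 (limma, adjusted p = 0.012) and CEACAM1 at 1.51 (limma, adjusted p = 0.0048). Around CEACAM19 the median was 0.38 over 14 genes, and after subtraction its log2 fold change was 0.49 (limma, adjusted p = 0.22). Whether the neighbours of CEACAM19 moved differently from those of CEACAM6 or CEACAM1 was not tested.

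**Figure D5:**
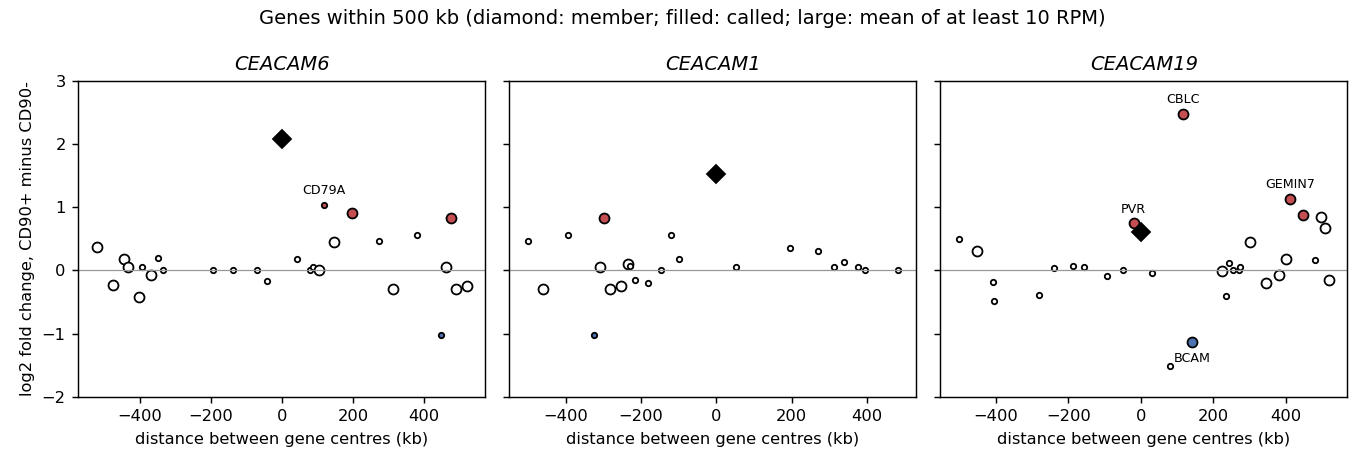
The log2 fold change (HuCCT1/CD90+ over HuCCT1/CD90-) of genes, those of the family included, within 500 kb of CEACAM6, CEACAM1 and CEACAM19, against the distance in kb between gene centres. Not all neighbours of CEACAM6 are drawn. The diamond is the member, filled points were called, and large points average 10 RPM or more. CEACAM6 is at 2.08, CEACAM1 at 1.53 stands above all of its neighbours, and CEACAM19 at 0.61 lies among its neighbours.

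The genes whose profile over the 6 libraries was most like that of a called member were sought by the root mean square difference of centred log2(RPM + 1) values, over the 12060 other genes that averaged 1 RPM or more. For CEACAM6 these were SLC12A8 (0.0745), LOC647859 (0.111) and C9orf152 (0.128), with log2 fold changes of 2.00, 1.98 and 1.98. SLC12A8, a solute transporter of the membrane, was read at 5.40, 8.35 and 11.7 RPM in the CD90- libraries and at 32.7, 41.7 and 33.2 RPM in the CD90+ libraries. It shared with CEACAM6 the order of the CD90- libraries and the highest value in CD90+ library 2. For CEACAM1 these were BTC, a ligand of EGFR (0.0773), MIA2, a protein of secretory vesicle export (0.0984), and MGLL, a lipase of monoacylglycerols (0.101), with log2 fold changes of 1.58, 1.48 and 1.61. BTC was at or under the floor in the CD90- libraries and at 2.47, 2.10 and 4.02 RPM in the CD90+ libraries, with its lowest and highest values in the same CD90+ libraries as CEACAM1. Of the 6 fits without 1 library, the calls of SLC12A8 and MIA2 were each lost in 4 and that of LOC647859 in 3. With the replicate block the adjusted p was 0.061 for SLC12A8 and 0.077 for MIA2 (limma). This likeness describes 6 libraries that differ mainly by line and share their depth between genes. The genes were chosen by it, so their like order and fold changes follow from the choice.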

How the data were processed

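Total RNA of 3 HuCCT1/CD90- and 3 HuCCT1/CD90+ libraries was amplified with an Ion AmpliSeq transcriptome panel and read on the Ion GeneStudio S5 Prime. The authors deposited RPM, reads per amplicon scaled to the library total, in 1 table of 20811 genes, counted with the ampliSeqRNA plugin and not filtered. The submitters' processing notes name hg19 and Transcriptome Analysis Console. Positions given here are from GENCODE 29 (GRCh38), matched by symbol for 18622 genes, and promoters from RefSeq (GRCh38.p14).

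Values were whole multiples of 1 read in each library within 0.002 RPM, so reads were recovered and used for the floor of 3 reads and for count tests. No molecular identifiers were used, so floors reflect counting error alone. A fold against a line whose libraries were all at or under the floor is a bound against its largest floor. In a chi-square test of reads, no pair of libraries was alike within sampling noise.

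log2(RPM + 1) was fitted for all genes with limma 3.58.1 (lmFit, eBayes) in R 4.3.3, HuCCT1/CD90+ against HuCCT1/CD90-, as the study's methods name this test and a fold change of 1.5. Here p was adjusted over all genes. Alternatives were other offsets, filters, scalings and thresholds, eBayes with trend and robust settings, leaving out each library, edgeR 4.0.16 and DESeq2 1.42.0 on recovered reads, subtraction of neighbouring genes, and the replicate number as a block. Deviations from the line means correlated at 0.21, 0.32 and 0.18 for same-numbered libraries and at -0.29 to 0.071 for others. On this check alone, equal numbers were treated as pairs. Sequences were aligned with Biopython 1.88. The fits were tested on simulated data.

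Some genes of the lists and among the neighbours are not reported here, while counts, sums and medians include them. Named were the members and THY1, up to 3 called genes in each direction per list, markers at 0, some of the called neighbours, and the 3 genes most like each called member. CEACAM3, CEACAM8, PSG9, USF1, USF2 and SP1 were named outside this rule, after their values were seen. Members and lists were chosen with earlier results of these data known.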

Additional observations from a re-analysis of the deposited data

How the results depend on the processing

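CEACAM1, CEACAM5, CEACAM6 and CEACAM19 kept their direction under the alternatives run. CEACAM7 had no read and so no direction. CEACAM1 was called in 17 of the 18 alternatives that could test it, thresholds included. With an offset of 5 RPM its log2 fold change was 0.46, below the fold limit by construction, and the filters on means of at least 1 and 10 RPM left it out. CEACAM6 was called in 19 of 20 alternatives. Leaving out 1 library at a time gave it 1.85 to 2.32, and the call was lost without CD90+ library 3. CEACAM19 (0.61) was called with the filter on a mean of at least 1 RPM, at an adjusted p of 0.023 (limma). It was also called by the unadjusted p of 0.035 over all genes (limma). edgeR gave it an adjusted p of 0.056 and DESeq2 0.10. The replicate block changed no member's call, with limma adjusted p of 0.037 for CEACAM1, 0.045 for CEACAM6 and 0.29 for CEACAM19. The block took the genes called lower over the whole table from 1558 to 1011. Leaving out 1 library gave 1868 to 2414 genes called in all, 960 to 1174 of them higher and 908 to 1240 lower, beside 3138, 1580 and 1558, with the lowest counts without CD90+ library 3 and, in all, 2083 without CD90- library 3. A fold limit of 2 gave 1874, 952 and 922. Of the members, 1 was called higher with an offset of 5 RPM and 1 with the filter at 10 RPM, and 1 to 2 without single libraries (1 without CD90+ library 3). For the PSG genes, where 1 was called, edgeR without a filter called 2. For them 0 were called with an offset of 5 RPM, either filter, trend and robust settings, the replicate block, edgeR with its filter, DESeq2, neighbours subtracted, a fold limit of 2 or any single library left out. Without single libraries, 1 to 3 of the partners, 0 to 3 of the GPI genes, 2 to 4 of the antigens (2 without CD90+ library 3) and 1 to 2 of the regulators were called, and no GPI gene without CD90- library 3. A fold limit of 2 left 1 GPI gene. edgeR without a filter and DESeq2 each called 7 antigens. Of the regulators, 1 in the limma test, 3 were called with the filter at 1 RPM, with edgeR in both forms and with DESeq2, and 2 with the filter at 10 RPM, with median centring and with the unadjusted p. The causes of these changes were not tested. The 42 other genes picked for naming, some of them not reported here, gave 818 values under the alternatives. Of these 694 kept their call and 124 lost it, and 0 turned direction. CEACAM1, CEACAM5, CEACAM7 and CEACAM19 rest on 0 to 52 reads in a library, and a value at 0 reads could be up to the floor of 3 reads.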

Other observations

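Near CEACAM19, CBLC, an E3 ubiquitin ligase of epithelial cells that acts on EGFR, was read at 8.53, 14.1 and 13.7 RPM in the CD90- libraries and at 63.5, 78.4 and 70.6 RPM in the CD90+ libraries (log2 fold change 2.48, limma adjusted p = 0.0044). The lines did not overlap for CBLC. PVR, the poliovirus receptor and a ligand of natural killer cell receptors, rose from 220 ± 21.3 to 370 ± 29.8 RPM (SD, n = 3 per line; limma adjusted p = 0.012, and 0.081 with the replicate block). GEMIN7, of the complex that assembles spliceosomal particles, rose from 8.31 ± 0.815 to 19.3 ± 0.510 RPM (SD, n = 3 per line; limma adjusted p = 0.0019). BCAM, a laminin receptor of the immunoglobulin superfamily, fell from 87.0 ± 11.4 to 39.0 ± 4.56 RPM (SD, n = 3 per line; limma adjusted p = 0.010, and 0.079 with the replicate block).

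Of 24 genes outside the family within 500 kb of CEACAM6, 4 were called higher and 1 lower. Among those called higher, CD79A, a chain of the B cell receptor complex, had 0 reads in each CD90- library. It had 10, 12 and 7 reads in the CD90+ libraries, at least 3.35-fold above the floor (limma, adjusted p = 0.0089).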
